A study of Mus musculus with 11 samples.

Results

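The ErbB receptors are receptor tyrosine kinases at the cell surface that bind growth factors of the epidermal growth factor (EGF) family and signal as dimers. Their expression was followed here through 10 genes: the receptors Erbb2, Erbb3 and Egfr, the ligands Areg, Ereg, Hbegf, Tgfa, Btc and Nrg1, and the receptor inhibitor Errfi1. They were chosen by name from the 22243 genes of the table and were covered by 11 transcripts. RNA was measured in full-thickness distal colon, the whole wall with mucosa and muscle. The 5 KO mice were homozygous for a knockout of Nrg4 (Nrg4-/-), which encodes neuregulin-4, an EGF-family ligand of the receptor ErbB4, and the 6 WT mice were wild type. Both genotypes were 11 to 12 weeks old at dissection and had shared cages since 9 weeks of age. Cage A held KO-1, KO-8, WT-5 and WT-7, cage B held KO-4, KO-9, WT-2 and WT-11, and cage C held KO-3, WT-6 and WT-10. The labels do not say in which cells Nrg4 was deleted, nor give the strain or the sex of a mouse.

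EGF-family ligands are mostly made as membrane-bound precursors that proteases such as ADAM10 and ADAM17 release. EGFR binds EGF, amphiregulin, epiregulin, TGF-alpha, HB-EGF and betacellulin, ErbB3 and ErbB4 bind neuregulins, and ErbB2 has no known ligand and acts as a partner of the others. In the gut epithelium, ligands of EGFR sustain proliferation and repair, and active receptors turn on the RAS-MAPK and PI3K-AKT pathways together with inhibitors that limit the signal.

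Expression is given as TPM, the abundance of a transcript scaled for its length and for the total of a library, so that levels of different genes can be set side by side. TPM keeps no sequencing depth, and the number of reads behind each value is therefore unknown. The listed TPM of a mouse summed to between 558446 and 770986, of which 19.0% to 42.9% was mitochondrially encoded, and 10221 to 10822 genes per mouse reached 1 TPM. All 12 epithelial marker genes reached 1 TPM in every mouse, as did 8 of the 9 smooth muscle markers in the table, while 9 of 10 squamous markers stayed below 1 TPM in every mouse. No mouse of either genotype had Nrg4 above 0 TPM, so that this gene could not check the genotype labels. Expression of the Y-linked gene Eif2s3y was 21.5 TPM or more in all 4 mice of cage A and did not exceed 0.0523 TPM in any mouse of cages B and C. Sex and cage A therefore cannot be told apart.

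None of the ErbB genes differed between KO and WT colon beyond the spread between mice. Genotypes were compared with limma on log2(TPM + 0.5) with cage as a term, over the 10756 genes that reached 1 TPM in 5 or more mice. Of the 10 genes, 9 passed this filter; 5 had higher values in KO, 4 had lower values, and 0 were called at a false discovery rate (FDR) of 0.05. At an unadjusted p below 0.05 the count was also 0 of 9. Over all genes, 4 were called (0.0372%) and 3.10% had a p below 0.05. All 9 adjusted p-values were 1.00. The median log2 fold change was 0.02 over the 9 genes and -0.01 over all genes tested. In every one of the 10 genes the values of the genotypes overlapped, and over all 10756 genes 0.223% had genotypes that did not overlap, so that an overlap in all 10 is the usual case. Below, ± after a log2 fold change is the standard error of the fit. In whole tissue, fewer cells of a type and less RNA per cell cannot be told apart.

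**Figure D1:**
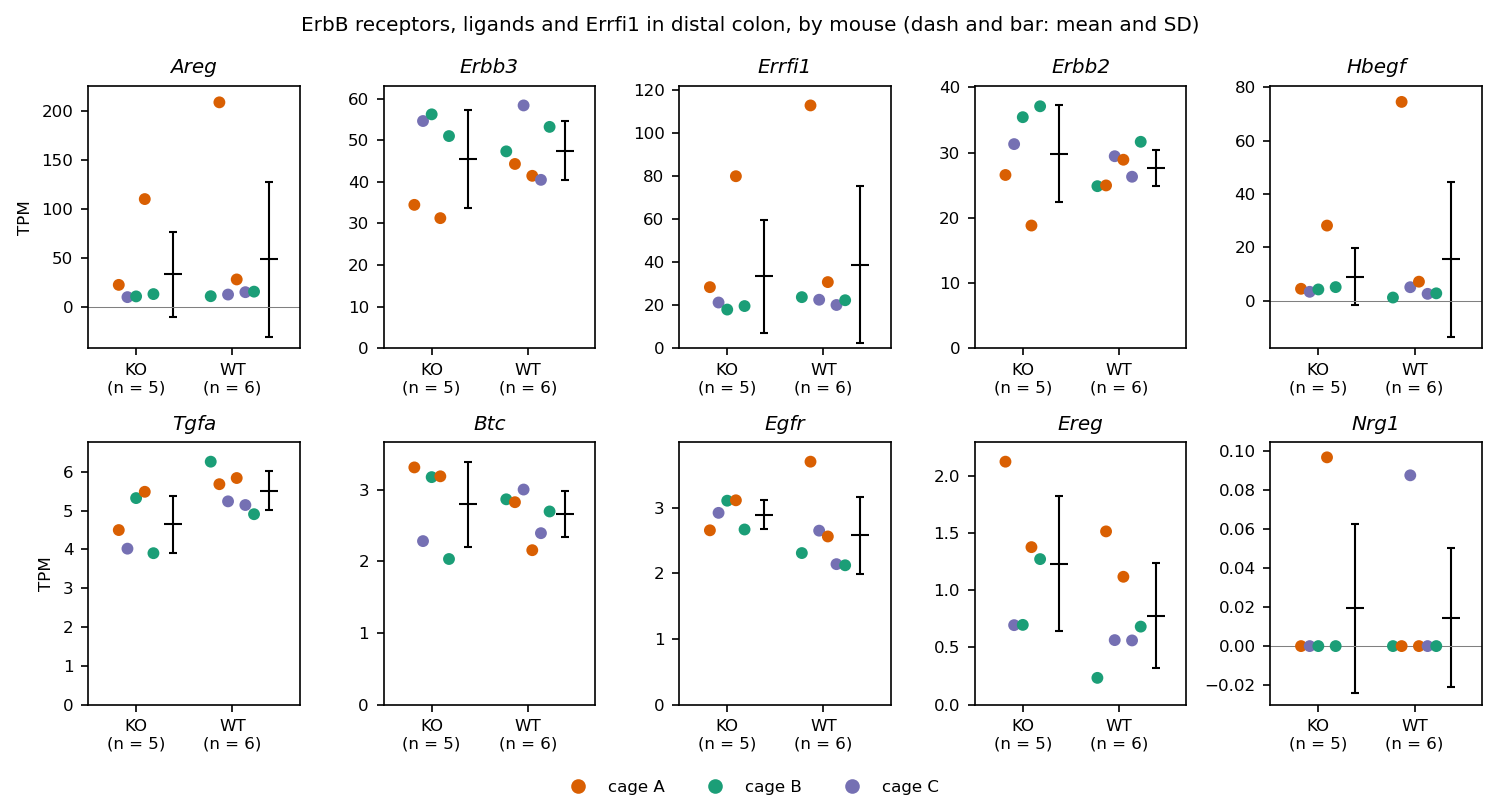
TPM of the 10 genes in each mouse, with KO (n = 5) left of WT (n = 6), points coloured by cage and the mean and SD beside them, each panel on its own linear axis. The genotypes overlap in every panel, and KO-8 and WT-5, both of cage A, lie far above the other mice for Areg, Hbegf and Errfi1.

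Of the receptors, Erbb3 was the most abundant. ErbB3 binds neuregulins but has little kinase activity of its own and signals through its partner. Erbb3 (ENSMUSG00000018166, chromosome 10, 128567523 to 128589652, minus strand) had 34.5 TPM in KO-1, 54.6 in KO-3, 56.2 in KO-4, 31.3 in KO-8 and 51.0 in KO-9, against a lowest value of 40.5, a median of 45.8 and a highest of 58.3 TPM in WT mice. The 2 KO mice of cage A lay below every WT mouse and the other KO mice lay within the WT range. The mean was 45.5 ± 11.7 TPM in KO (SD, n = 5) and 47.5 ± 7.02 TPM in WT (SD, n = 6), a log2 fold change of -0.07 ± 0.13 with a 95% interval of -0.34 to 0.21 (limma adjusted p = 1.00). Within cage A the log2 difference was -0.38, and within cages B and C it was 0.09 and 0.17.

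Erbb2 encodes the receptor that pairs with ErbB3 and EGFR. Erbb2 (ENSMUSG00000062312, chromosome 11, 98412470 to 98437716, plus strand) had 26.6 TPM in KO-1, 31.3 in KO-3, 35.4 in KO-4, 18.8 in KO-8 and 37.1 in KO-9, against 24.8 (lowest), 27.6 (median) and 31.6 TPM (highest) in WT mice. The lowest and the highest mouse of all were both KO, KO-8 of cage A and KO-9 of cage B. Its log2 fold change was 0.08 ± 0.14, with an interval of -0.23 to 0.39 (limma adjusted p = 1.00). It was -0.26 within cage A, 0.36 within cage B and 0.17 within cage C. Exons of the neighbouring gene Mien1 overlap those of Erbb2 on the other strand, as gene models do at Ereg, Tgfa and Nrg1. The libraries were stranded, per the labels, but whether reads of the overlapping genes entered these levels was not tested.

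Egfr, the receptor for most of the ligands below, was listed at about the level of the rarer ligands. That level covers 1 of the 3 protein-coding Egfr transcripts of the annotation, so the gene total may be higher. Egfr (ENSMUSG00000020122, chromosome 11, 16752203 to 16918158, plus strand) had 2.65 TPM in KO-1, 2.92 in KO-3, 3.11 in KO-4, 3.11 in KO-8 and 2.67 in KO-9, against 2.12 (lowest), 2.43 (median) and 3.70 TPM (highest) in WT mice. All KO mice lay above 5 of the 6 WT mice, but WT-5 was the highest of all. The log2 fold change was 0.15 ± 0.15, with an interval of -0.18 to 0.47 (limma adjusted p = 1.00). The fourth receptor gene, Erbb4, whose protein binds neuregulin-4, averaged 0.00128 ± 0.00287 TPM in KO (SD, n = 5) and 0.00420 ± 0.00464 TPM in WT (SD, n = 6), and its highest value in any mouse was 0.00907 TPM. The level of Erbb4 also covers only 1 of 3 protein-coding transcripts of the annotation, so its gene total may be higher.

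Among the ligands, Tgfa and Ereg had the smallest p. Tgfa, which encodes TGF-alpha (ENSMUSG00000029999, chromosome 6, 86195223 to 86275719, plus strand), had 4.50 TPM in KO-1, 4.02 in KO-3, 5.33 in KO-4, 5.49 in KO-8 and 3.90 in KO-9, against 4.91 (lowest), 5.46 (median) and 6.26 TPM (highest) in WT mice. In 3 of 5 KO mice the value was below every WT mouse, and KO-4 and KO-8 lay within the WT range. The log2 fold change was -0.25 ± 0.12, with an interval of -0.52 to 0.01 (limma unadjusted p = 0.0604, adjusted p = 1.00). It was negative within each cage, with values of -0.19 (A), -0.26 (B) and -0.33 (C).

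Ereg encodes epiregulin, a ligand of EGFR and ErbB4. Ereg (ENSMUSG00000029377, chromosome 5, 91074622 to 91093646, plus strand) had 2.13 TPM in KO-1, 0.695 in KO-3, 0.698 in KO-4, 1.38 in KO-8 and 1.27 in KO-9, against 0.234 (lowest), 0.624 (median) and 1.52 TPM (highest) in WT mice. All KO mice exceeded the WT mice of cages B and C, while WT-5 and WT-7 of cage A lay among the KO values. The log2 fold change was 0.40 ± 0.22, with an interval of -0.09 to 0.88 (limma unadjusted p = 0.0996, adjusted p = 1.00), and it was positive within each cage, at 0.30 in A, 0.65 in B and 0.17 in C. Ereg was at or above 1 TPM in 5 mice, 4 of them of cage A, and so only just passed the filter.

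Btc encodes betacellulin, which binds EGFR and ErbB4. Btc (ENSMUSG00000082361, chromosome 5, 91357261 to 91402994, minus strand) ranged from 2.03 to 3.31 TPM over KO mice and from 2.16 to 3.0 TPM over WT mice, with a log2 fold change of 0.04 ± 0.16 (interval -0.32 to 0.40; limma adjusted p = 1.00). It varied little between mice, by 1.63-fold from lowest to highest. Nrg1 encodes neuregulin-1, a ligand of ErbB3 and ErbB4. It was listed at 0.0967 TPM in KO-8, 0.0875 TPM in WT-6 and 0 TPM in the other mice, and it was not tested; the table holds 1 of the 12 protein-coding Nrg1 transcripts of the annotation.

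Areg encodes amphiregulin, an EGFR ligand, and Hbegf encodes heparin-binding EGF-like growth factor, a ligand of EGFR and ErbB4. Areg (ENSMUSG00000029378, chromosome 5, 91139599 to 91148432, plus strand) had 22.1 TPM in KO-1, 9.63 in KO-3, 10.4 in KO-4, 109.7 in KO-8 and 12.7 in KO-9, against 10.6 (lowest), 15.0 (median) and 208 TPM (highest, WT-5) in WT mice. Hbegf (ENSMUSG00000024486) had 4.50 TPM in KO-1, 3.37 in KO-3, 4.26 in KO-4, 28.2 in KO-8 and 5.13 in KO-9, against 1.23 (lowest), 3.95 (median) and 74.5 TPM (highest, WT-5) in WT mice. In each genotype 1 mouse of cage A held the highest value by far, and the remaining mice overlapped. The KO against WT log2 fold change was -0.40 ± 0.52 for Areg, with an interval of -1.56 to 0.76 (limma adjusted p = 1.00). For Hbegf it was 0.02 ± 0.67 (interval -1.47 to 1.5; limma adjusted p = 1.00), and -0.03 with a pseudocount of 1. The intervals take in a 2-fold lower value of Areg, and a 2-fold difference of Hbegf in either direction. Without WT-5 the Areg value was 0.05.

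Errfi1 encodes an inhibitor that binds the kinase domain of EGFR and its relatives and is itself switched on by their signal. Errfi1 (ENSMUSG00000028967, chromosome 4, 150853919 to 150868892, plus strand) had 28.4 TPM in KO-1, 21.2 in KO-3, 18.0 in KO-4, 79.9 in KO-8 and 19.6 in KO-9, against 20.1 (lowest), 23.1 (median) and 113 TPM (highest, WT-5) in WT mice. KO-8 and WT-5 again stood far above the rest. The log2 fold change was -0.22 ± 0.33, with an interval of -0.97 to 0.52 (limma adjusted p = 1.00), and without WT-5 it was 0.06.

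**Figure D2:**
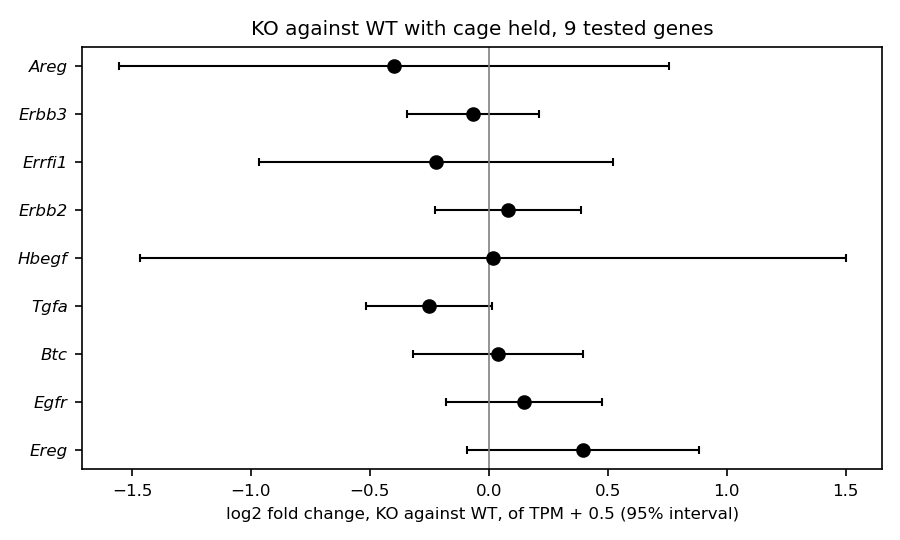
Log2 fold change of KO against WT, with cage as a term, and its 95% interval for the 9 tested genes, ordered by mean TPM in WT from the top. Every interval includes 0, and those of Hbegf, Areg and Errfi1 are the widest, with Hbegf spanning -1.47 to 1.5.

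The 2 Errfi1 transcripts in the table behaved unlike each other. They share their middle exons, and their last exons differ by 5 nt in length, so that they are told apart mainly by the first exon. The downstream first exon, of ENSMUST00000030811.1, spans 150855073 to 150855271 (199 nt), and the upstream one, of ENSMUST00000073600.8, spans 150853919 to 150854105 (187 nt). The downstream-start transcript was listed at 1.65 TPM in KO-1, 0 in KO-3, 1.62e-06 in KO-4, 38.3 in KO-8 and 4.91e-06 in KO-9, against 5.78 (lowest), 9.47 (median) and 48.4 TPM (highest, WT-5) in WT mice. In 4 of 5 KO mice it lay below every WT mouse, and KO-8 lay within the WT range. It made up 5.80% of the Errfi1 total in KO-1, 47.9% in KO-8 and 0% to 2.50e-05% in the other KO mice, against 28.8% to 45.3% in WT mice. The upstream-start transcript ranged from 18.0 to 41.6 TPM in KO mice and from 12.2 to 64.3 TPM in WT mice.

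Fitted per transcript, the downstream-start transcript had a log2 fold change of -3.07 ± 0.83 (limma unadjusted p = 0.00454) but an adjusted p of 1.00. In that fit 0 of the 10 tested transcripts of these genes were called, against 4 of all 12067 (0.0331%). In the authors' deposited table the p-value of this transcript was 0.000623 with a q-value of 0.851, and the deposited log2 ratio was -0.92. The upstream-start transcript had 0.26 ± 0.27 (limma adjusted p = 1.00). A value listed at or near 0 can be a failed estimate, since a read in the shared exons is assigned to 1 of the transcripts by the model, and reads were 75 nt long. How reads were divided between the transcripts was not tested, while the gene total above does not depend on it.

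**Figure D3:**
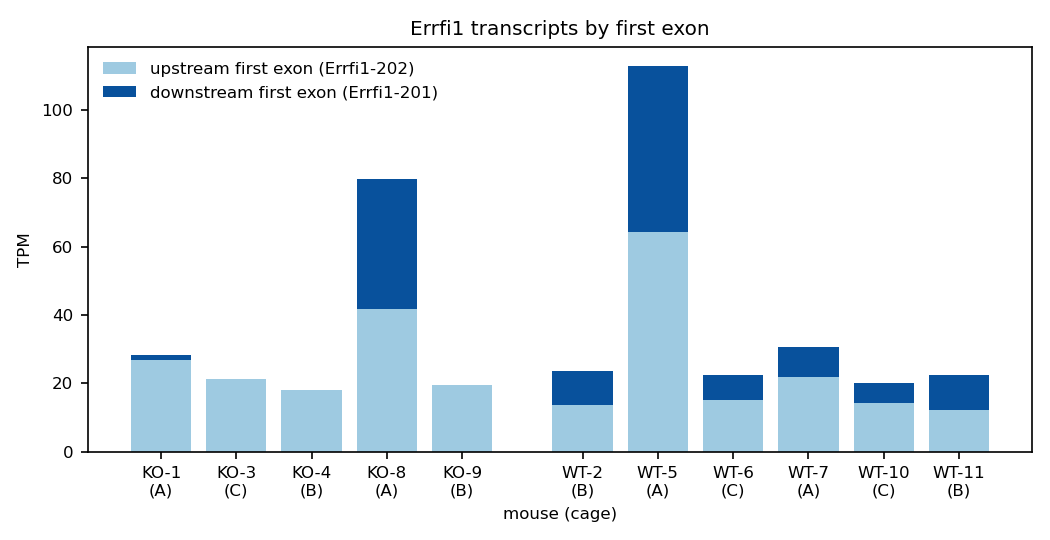
TPM of the 2 Errfi1 transcripts stacked for each mouse, KO mice on the left, with the cage in brackets. The downstream-start part is visible in every WT mouse and in KO-1 and KO-8, and is 0 or under 1e-05 TPM in KO-3, KO-4 and KO-9.

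More of these genes had a small p by cage than by genotype, although none was called by either. The F test on cage called 0 genes in all (0%; limma, smallest adjusted p 0.0876), with 12.1% of genes at an unadjusted p below 0.05. Of the 9 tested genes 5, or 4 of 8 with Ereg left aside, had an unadjusted p below 0.05, namely Areg (0.00476), Errfi1 (0.00997), Ereg (0.0181), Erbb3 (0.0197) and Hbegf (0.0295), and 0 were called. Ereg reached 1 TPM in all 4 mice of cage A and in 1 other, so it entered the test through the cage where it was high, and its p by cage is a description only. The adjusted p-values of the 5 genes by limma ran from 0.311 for Areg to 0.379 for Hbegf. A contrast of cage A with the mean of cages B and C was added after the values were seen. It called 5 genes of 10756 (0.0465%), had 17.4% of genes at an unadjusted p below 0.05, and called 0 of the 9 ErbB genes. The same 5 genes had an unadjusted p below 0.05 in it, Ereg again as a description only.

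The mean of Areg was 92.0 ± 87.4 TPM over the 4 mice of cage A and 12.2 ± 2.17 TPM over the 7 mice of the other cages (± SD). All 4 mice of cage A, at 22.1 to 208 TPM, lay above the other 7, at 9.63 to 15.2 TPM, with a log2 fold change of 2.34 ± 0.54 (limma adjusted p = 0.141). Over all genes tested, 4.04% had no overlap between cage A and cages B and C, and among these 9 genes it was Areg and Errfi1. Errfi1 had values of 28.4 to 113 TPM in cage A and 18.0 to 23.7 TPM in cages B and C, with 1.33 ± 0.34 (limma adjusted p = 0.157). Hbegf averaged 28.6 ± 32.4 TPM in cage A and 3.50 ± 1.43 TPM in the other cages (SD, n = 4 and 7); KO-1, at 4.50 TPM, overlapped the other cages (2.16 ± 0.69, and 1.29 without WT-5; limma adjusted p = 0.186 and 0.407). Ereg averaged 1.54 ± 0.428 TPM in cage A and 0.673 ± 0.311 TPM in cages B and C, with KO-9 of cage B inside the range of cage A (0.79 ± 0.23; limma adjusted p = 0.166). As it passed the filter through cage A, these values of Ereg are a description only.

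Erbb3 and Erbb2 had lower values in cage A. Erbb3 averaged 37.9 ± 6.03 TPM in cage A and 51.6 ± 6.07 TPM in the other cages (SD, n = 4 and 7), a log2 fold change of -0.44 ± 0.13 (limma adjusted p = 0.168), and WT-10 of cage C at 40.5 TPM overlapped cage A. Erbb2 had 24.8 ± 4.31 TPM in cage A and 30.9 ± 4.46 TPM in cages B and C (-0.31 ± 0.14; limma adjusted p = 0.295). Egfr, Tgfa and Btc had log2 fold changes of 0.18 ± 0.15, 0.14 ± 0.12 and 0.10 ± 0.17 for cage A against cages B and C (limma adjusted p of 0.545, 0.580 and 0.77). The summed epithelial markers were 10946 to 13731 TPM in cage A and 8571 to 14851 TPM in cages B and C, and the fibroblast markers 99.8 to 191 and 97.2 to 168 TPM. Smooth muscle markers summed to 3234 to 6011 TPM in cage A, with WT-5 (6011) and KO-1 (5400) the highest of all mice, and to 3102 to 4853 TPM in cages B and C. Mitochondrial transcripts made up 19.0% to 24.7% of TPM in cage A and 22.3% to 42.9% in cages B and C. With mitochondrial genes left out the contrast of cage A was 2.35 for Areg, 1.35 for Errfi1, 2.18 for Hbegf, -0.42 for Erbb3 and -0.29 for Erbb2. The part of tissue makeup in these differences was not tested. Without WT-5 and KO-8 the contrast of cage A gave 1.03 for Areg, 0.49 for Errfi1, 0.68 for Hbegf, -0.44 for Erbb3 and -0.15 for Erbb2. That fit leaves only KO-1 and WT-7 in cage A and drops the 2 mice highest for Areg. The limma p of Areg in it (unadjusted 0.000285, adjusted 0.218) is therefore a description only. Erbb2 was -0.16 without KO-8 alone. The genotype by cage test called 2 genes of 10756 (0.0186%; limma) and 0 of these 9, with 3.97% of all genes and 0 of the 9 at an unadjusted p below 0.05.

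**Figure D4:**
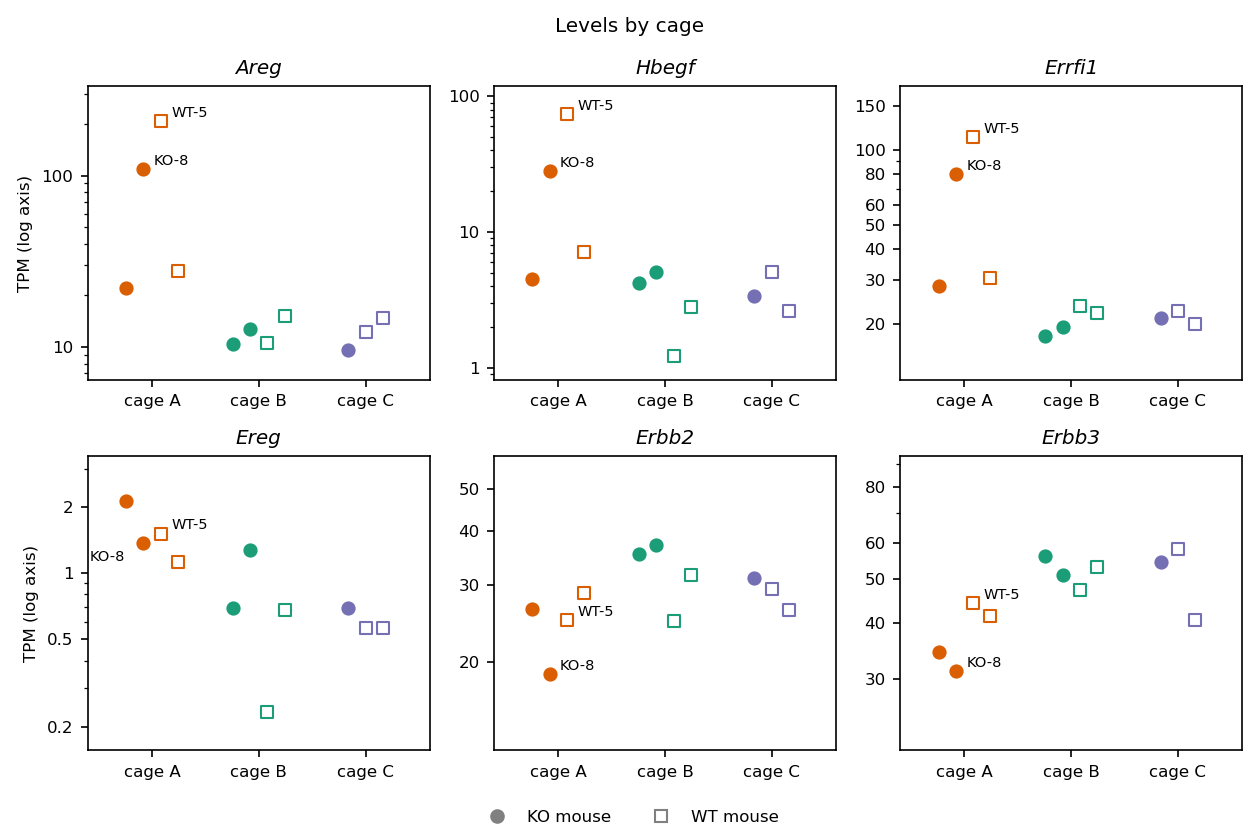
TPM on a log axis for 6 of the genes by cage, with KO mice as filled circles and WT mice as open squares. For Areg and Errfi1 all mice of cage A lie above all others, KO-8 and WT-5 stand highest, and for Erbb3 the 4 mice of cage A lie at 31.3 to 44.3 TPM.

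The promoter windows of Areg and Errfi1 are shown because these were the members whose gene totals separated cage A from the rest, as those of 4.04% of all genes did. The windows run from 250 bases before to 50 bases after a RefSeq start (build GRCm38.p6, all on the plus strand). Capitals mark the cAMP response element TGACGTCA, whose reverse complement is itself, and the TATA box TATAAA. Both strands were searched, and these motifs do not overlap each other.

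Areg, chr5:91139349-91139648: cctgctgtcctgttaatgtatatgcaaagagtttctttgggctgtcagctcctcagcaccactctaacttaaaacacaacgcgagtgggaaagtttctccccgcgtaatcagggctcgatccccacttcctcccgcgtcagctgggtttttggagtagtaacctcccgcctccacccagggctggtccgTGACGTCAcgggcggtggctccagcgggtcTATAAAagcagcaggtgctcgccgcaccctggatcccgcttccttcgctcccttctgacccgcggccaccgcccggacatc

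Errfi1 downstream start, chr4:150854820-150855119: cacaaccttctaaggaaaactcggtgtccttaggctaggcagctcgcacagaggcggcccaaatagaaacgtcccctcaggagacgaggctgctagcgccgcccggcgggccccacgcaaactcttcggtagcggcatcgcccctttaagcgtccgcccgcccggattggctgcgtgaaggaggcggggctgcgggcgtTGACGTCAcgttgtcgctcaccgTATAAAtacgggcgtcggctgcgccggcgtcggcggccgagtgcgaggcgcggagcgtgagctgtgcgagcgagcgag

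Errfi1 upstream start, chr4:150853546-150853845: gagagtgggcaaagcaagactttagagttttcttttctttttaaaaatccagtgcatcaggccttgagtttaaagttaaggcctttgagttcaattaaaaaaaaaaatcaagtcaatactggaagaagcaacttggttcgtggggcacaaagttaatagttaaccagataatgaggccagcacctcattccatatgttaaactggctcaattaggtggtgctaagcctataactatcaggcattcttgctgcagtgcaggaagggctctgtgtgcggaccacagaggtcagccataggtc

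In the Areg window the first base of TGACGTCA lies at -61 and that of TATAAA at -31, counted from the start. In the window of the downstream Errfi1 start these positions are -51 and -28. Taken by transcript, it was the upstream-start Errfi1 transcript whose values separated cage A, at 21.7 to 64.3 TPM against 12.2 to 21.2 TPM in cages B and C. The downstream-start transcript overlapped, at 1.65 to 48.4 TPM in cage A and 0 to 10.1 TPM in cages B and C. The letters stand in the window of the downstream start, whose transcript overlapped between the cages. By means, however, cage A over cages B and C was 5.12 for the downstream-start transcript and 2.37 for the upstream-start transcript. Low values of the downstream-start transcript can be failed estimates, as said above. Whether the letters have a part in either pattern was not tested. The window of the upstream Errfi1 start, whose RefSeq start lies 123 bases before that of the transcript in the table, holds neither set of letters. The windows of Btc, Egfr, Erbb2 and Tgfa also hold neither, and none of the 7 windows holds the AP-1 letters TGAGTCA on either strand. Of all 32851 windows, 1.79% hold TGACGTCA, 13.6% hold TATAAA, 5.20% hold TGAGTCA and 0.170% hold both TGACGTCA and TATAAA. A match of letters does not show that a factor binds there. Areg, Ereg, Btc and Epgn lie together within 376 kb of chromosome 5. Even so, the mean in cage A over that in cages B and C was 7.53 for Areg, 2.28 for Ereg and 1.09 for Btc, and Epgn, which encodes the ligand epigen, stayed below 1 TPM in every mouse. The level of Epgn covers 1 of its 2 annotated protein-coding transcripts.

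By level in WT colon the genes differed widely. The levels of Egfr, Tgfa and Nrg1 each cover 1 of 3, 2 and 12 annotated protein-coding transcripts, so their places may understate the gene. The mean was 48.2 ± 78.8 TPM for Areg, 47.5 ± 7.02 for Erbb3, 38.7 ± 36.5 for Errfi1, 27.7 ± 2.74 for Erbb2 and 15.6 ± 28.9 for Hbegf (SD, n = 6). Then came Tgfa at 5.52 ± 0.505 TPM, Btc at 2.66 ± 0.321, Egfr at 2.58 ± 0.590, Ereg at 0.780 ± 0.461 and Nrg1 at 0.0146 ± 0.0357 TPM. The first place of Areg rests on WT-5: Areg exceeded Erbb3 in 1 of 6 WT mice, and without WT-5 it was at position 4 and Hbegf at position 6. By median the order began with Erbb3 (45.8 TPM), Erbb2 (27.6), Errfi1 (23.1) and Areg (15.0). The 9 pairs of neighbours in the order of means were compared within each mouse by an exact two-sided sign-flip permutation test, whose smallest possible p over 6 mice is 0.0313. None of the 9 pairs was called after adjustment. A pair at the smallest p passes the adjustment only if most of the 9 pairs reach it. The order was also taken from the same 6 mice, so the test cannot decide it. Tgfa exceeded Btc, Egfr exceeded Ereg and Ereg exceeded Nrg1 in 6 of 6 mice (exact p = 0.0313, adjusted p = 0.0938 each). In KO colon the order of means began with Erbb3, Errfi1, Areg and Erbb2.

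Between mice, Hbegf, Areg, Ereg and Errfi1 varied the most. From the lowest to the highest mouse Hbegf varied 60.6-fold, Areg 21.7-fold, Ereg 9.11-fold and Errfi1 6.27-fold, while the 3 receptors, Tgfa and Btc varied between 1.6-fold and 1.97-fold. Of 36 pairs among the 9 genes, 5 had a Pearson correlation of log2(TPM + 0.5) that passed over the 11 mice (permutation p with 100000 resamples, Benjamini-Hochberg adjusted over the pairs). By Spearman's rho 0 of the pairs passed, and without KO-8 and WT-5, the 2 mice farthest from the median for Areg and Hbegf, 0 passed over the other 9 mice.

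Areg and Errfi1 had r = 0.983 (adjusted permutation p = 0.00432) and rho = 0.764 (raw permutation p = 0.00872, adjusted p = 0.129), and among the other 9 mice r was 0.811 (raw permutation p = 0.0107, adjusted p = 0.384). For Areg and Hbegf r was 0.941 (adjusted permutation p = 0.0112), rho was 0.655, and r was 0.507 without the same 2 mice. For Hbegf and Errfi1 r was 0.921 (adjusted permutation p = 0.0227), rho was 0.555, and r was 0.255 without them. Egfr and Hbegf had r = 0.801 (adjusted permutation p = 0.0209) and rho = 0.682, with r = 0.627 without WT-5 and WT-11, the mice farthest from the median of Egfr, and r = 0.508 without KO-8 and WT-5 (adjusted permutation p = 0.462). Without KO-8 and WT-5, neither the 3 relations of Hbegf nor that of Areg with Errfi1 kept an adjusted call over the 9 mice left. The r of Areg with Errfi1 stayed above 0.8, and that of Hbegf with Errfi1 fell to 0.255. Hbegf kept an r of 0.507 with Areg and 0.508 with Egfr. Whether the calls were lost through these 2 mice or the smaller number was not tested. The partner receptors Erbb2 and Erbb3 had r = 0.774 (adjusted permutation p = 0.0323) and rho = 0.691, with r = 0.652 without KO-8 and KO-9, the mice farthest from the median of Erbb2, and r = 0.607 without KO-8 and WT-5 (adjusted permutation p = 0.462). With genotype and cage removed, r was 0.959 for Areg and Errfi1 and 0.684 for Erbb2 and Erbb3 (adjusted permutation p = 0.00828 and 0.106). In that setting, with KO-8 and WT-5 kept, Hbegf had r = 0.913 with Areg, 0.854 with Errfi1 and 0.821 with Egfr (adjusted permutation p = 0.00324, 0.0101 and 0.0150). Ereg and Tgfa, at r = -0.305 and rho = -0.145 before that step, had r = -0.840 after it (adjusted permutation p = 0.0101). Ereg reached 1 TPM in only 5 mice. The permutation after that step shuffled the remainders of a fit as if they were independent, although the fit ties them together. All its p-values can therefore be too small and are a description only.

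Among all 10755 other tested genes, those most like Erbb3 over the 11 mice by Pearson's r were Peli1 (0.976), Gpbp1l1 (0.965) and Cyp2d9 (0.937). Most like Erbb2 were Pigv (0.923), Fn3krp (0.922) and Slc37a2 (0.922), and most like Egfr were Slc18b1, 4930402H24Rik (0.928 each) and Ccdc22 (0.922). For Areg, for which likeness was looked up after its values were seen, Errfi1 was in first place with 0.983, followed by Sfn, the epithelial 14-3-3 sigma gene (0.983), and Lrrc8a (0.977). By Spearman's rho these 3 stood in the reverse order, at 0.764 for Errfi1, 0.882 for Sfn and 0.927 for Lrrc8a. The first place of Errfi1 by r thus does not hold by rank. Sfn had 81.0 to 355 TPM in cage A and 48.9 to 71.7 TPM in cages B and C. All genes named here were picked as the highest of 10755 correlations over 11 mice, with cage and genotype not removed. Such a highest r can be large without any link between the genes, and likeness was not tested.

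The rest of the pathway was read through lists. None of its genes was called between the genotypes. The other members of the receptor and ligand family, Erbb4, Egf, Epgn, Nrg2, Nrg3 and Nrg4, stayed below 1 TPM in every mouse, and 0 of 6 were tested. The listed levels cover 1 of 3 annotated protein-coding transcripts of Erbb4 and 1 of 2 of Epgn, so these gene totals may be higher. Of the genes for ligand release, 2 of 4 had higher and 2 had lower values in KO (median log2 fold change -0.03), with Adam17, the main shedding protease, at 0.78 ± 0.61. WT-10 was listed at 0.0260 TPM of Adam17, against 4.40 to 8.48 TPM in KO mice and 3.09 to 6.53 TPM in the other WT mice, and the log2 fold change was 0.31 ± 0.23 without WT-10 and 0.28 ± 0.66 without KO-3. Rhbdf2, a rhomboid-like partner that ADAM17 needs to mature, had -0.17 ± 0.20, and 0.0079 without KO-1. Of the genes that restrain receptors, 5 of 12 had higher and 7 lower values (median -0.01), with the ErbB3 ubiquitin ligase gene Rnf41 at -0.28 ± 0.20 and Erbin, which encodes a scaffold that binds ErbB2, at -0.28 ± 0.23 (-0.15 without KO-3 for Rnf41, and -0.13 without WT-5 for Erbin). Of the PI3K-AKT genes 9 of 10 were tested, with 4 higher and 5 lower values (median -0.03), Akt2 at -0.11 ± 0.07 and Mtor at 0.16 ± 0.12. Feedback and target genes had 8 higher and 7 lower values among 15 tested of 17 (median 0.04), with the transcription factor gene Etv5 at -0.38 ± 0.23 and the cyclin gene Ccnd1 at 0.14 ± 0.11.

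Of the adaptor and Ras-MAPK genes, 7 of 15 had higher and 8 lower values in KO (median -0.03), and 2 had an unadjusted p below 0.05. Hras, a small GTPase of the pathway, had 32.9 TPM in KO-1, 25.6 in KO-3, 30.6 in KO-4, 39.3 in KO-8 and 31.3 in KO-9, against 41.6 (lowest) to 52.3 TPM (highest) in WT mice. All KO values of Hras lay below all WT values, as in 0.223% of all genes in either direction, with a log2 fold change of -0.48 ± 0.11 (limma unadjusted p = 0.00167), but the adjusted p was 1.00. Ptpn11, which encodes the phosphatase SHP2 that carries receptor signals to Ras, averaged 11.3 ± 1.45 TPM in KO (SD, n = 5) and 7.72 ± 2.14 TPM in WT (SD, n = 6), with overlapping values (0.54 ± 0.20; limma unadjusted p = 0.0216, adjusted p = 1.00).

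By cage, 13 of the 15 tested feedback and target genes had higher values in cage A than in cages B and C, with a median log2 fold change of 0.60 against 0.03 over all genes tested, and 0 were called. Over all 10756 genes tested, 5769 had higher values in cage A. The following genes were chosen after their values were seen. Egr1, an immediate early gene of MAPK signalling, had 4.04 TPM in KO-1, 75 in KO-8, 354 in WT-5 and 3.75 in WT-7, and 0.852 to 7.30 TPM in cages B and C. Dusp6, an ERK phosphatase, had 11.1 TPM in KO-1, 21.0 in KO-8, 25.8 in WT-5 and 15.1 in WT-7, and 5.35 to 12.9 TPM in cages B and C. In both genes KO-8 and WT-5 were the highest mice, as for Areg, Hbegf and Errfi1, and for Egr1 the other 2 mice of cage A lay within the range of the other cages. KO-1 and WT-7 also lay within that range for Dusp4, Spry1 and Spry4, but above it for Dusp5. Summed over the list, WT-5 had 766 TPM and KO-8 had 411 TPM, and the other 9 mice had 202 to 333 TPM. Egr1 alone gave 354 TPM of the sum in WT-5 and 75 TPM of that in KO-8. Mcl1 was highest in WT-10 (258 TPM) and WT-11 (241 TPM), and Myc was lowest in WT-5 (0.780 TPM). The sum therefore does not stand for a rise of every gene in the list. Rhbdf2 showed the same pair on top, with 11.1 TPM in KO-8, 11.1 TPM in WT-5 and 4.08 to 7.11 TPM in the other mice. Time of dissection, handling and order of the mice are not in the labels, and their part in these values was not tested.

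**Figure D5:**
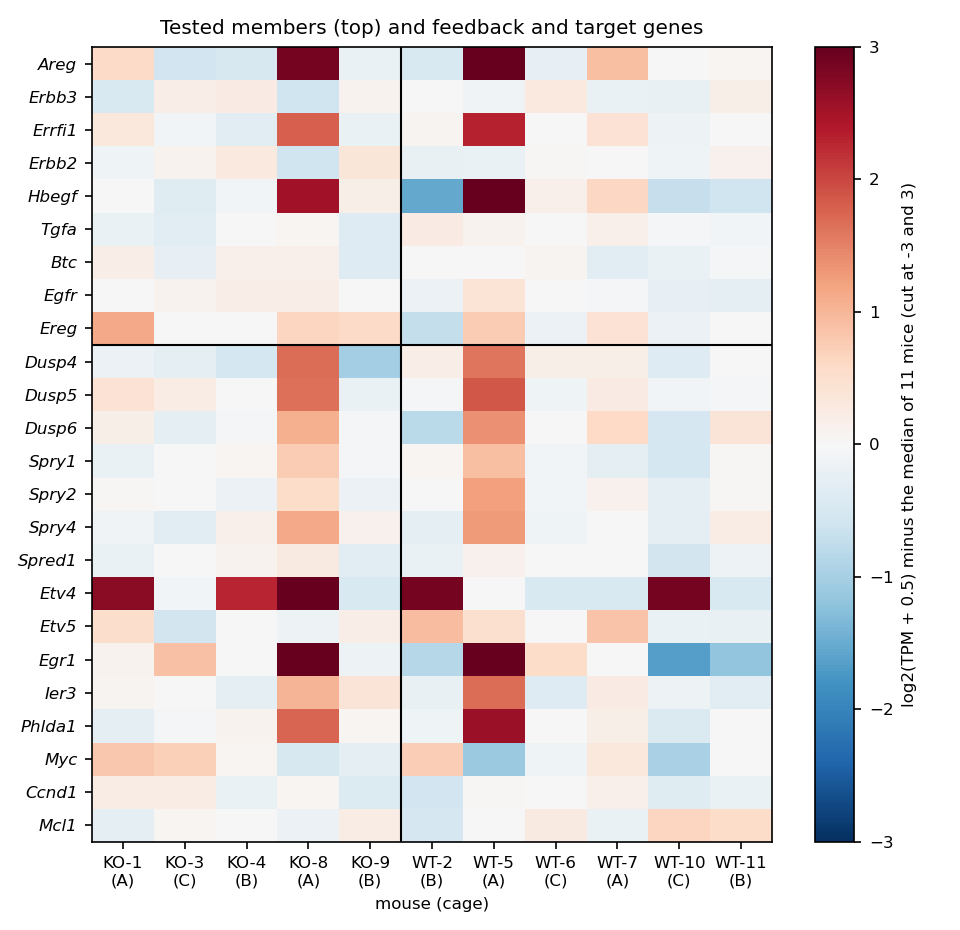
Log2(TPM + 0.5) minus the median of the 11 mice for the 9 tested genes (top) and the 15 tested feedback and target genes (below), with KO mice left of WT mice and the cage in brackets; colours end at -3 and 3. KO-8 and WT-5 are high for Areg, Hbegf, Errfi1, Dusp4, Dusp5, Dusp6, Egr1 and Phlda1, and Etv4 is listed near 0 in several mice of both genotypes.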

How the data were processed

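Per the labels' protocols, polyadenylated RNA was made into stranded libraries and read as single-end reads of 75 nt. CASAVA, kallisto, sleuth and the mm10 build are named in the submitters' processing notes, with no version in the sources used here. The authors deposited, per the file headers, TPM per principal (APPRIS) transcript and mouse, with a p-value and q-value, a log2 ratio (mean KO over mean WT), a likelihood-ratio score, a mean natural log of estimated counts and other variance terms of sleuth's model. Only the TPM, p, q and log2 ratio were used.

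Of 29213 rows, 405 repeats were dropped, which left 28808 transcripts, and TPM were summed over the transcripts of a gene. Genes that reached 1 TPM in 5 or more mice were tested with limma 3.58.1 (R 4.3.3), applied to log2(TPM + 0.5) with its mean-variance trend, terms for cage and genotype, and Benjamini-Hochberg adjustment over all 10756 genes. This scale understates changes of low genes. The limma fits were also run on simulated data with independent normal noise for each gene. That run does not show what size of change could be found in these 10 genes. Permutation tests used SciPy 1.17.1. Coordinates are from GENCODE M21 (GRCm38). RefSeq promoter windows were found for 6 of the 10 genes; those of Erbb3, Ereg, Hbegf and Nrg1 are not used here.

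The 10 genes, the gene lists and the tests were chosen with earlier results of these data known. Named beside the 10 genes are Nrg4 and Erbb4, the 2 genes of each list with the smallest p, and the 3 genes most correlated with each receptor; others are marked as chosen after their values were seen. The labels name each sample as a separate mouse, and TPM carry no depth from which a counting interval could be given.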

Additional observations from a re-analysis of the deposited data

Results flagged for a closer look

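In a group of 4 to 10 mice, a mouse was picked out when its gap to the nearest other made up an unusually large part of the group's range. Of 24 combinations of a gene or Errfi1 transcript with a genotype, 12 were picked out. The rule's rate of about 1 in 20 holds for normally distributed values. It was applied to TPM without a log scale, so the count cannot be read as an excess over that rate. For Areg these were KO-8 at 109.7 TPM and WT-5 at 208 TPM, and for Hbegf KO-8 at 28.2 TPM and WT-5 at 74.5 TPM. For the Errfi1 total they were KO-8 at 79.9 TPM and WT-5 at 113 TPM. The downstream-start Errfi1 transcript had KO-8 at 38.3 TPM and WT-5 at 48.4 TPM, and the upstream-start transcript had WT-5 at 64.3 TPM. Egfr had WT-5 at 3.70 TPM, the highest of the WT mice. For Nrg1, KO-8 at 0.0967 TPM and WT-6 at 0.0875 TPM were the only mice above 0 in their genotype, so the rule was bound to pick them. Of the 12, 10 were KO-8 or WT-5, both of cage A. The genes concerned vary together and the Errfi1 total is counted beside its transcripts, so the 12 are not independent.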

How the results depend on the processing

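No paired analysis was possible because the mouse numbers are unique across the genotypes; cage was a term of the fit. None of the 9 genes was called between KO and WT under any alternative run, nor by cage (smallest adjusted p 0.0747, for Areg and Errfi1 with 1 mouse left out). The number of all genes called between KO and WT was 4, and 2 with no filter on low values, 2 without WT-5 and KO-8, and 2 to 4 with each mouse left out. The cage F test called 0 to 2 genes with each mouse left out. The contrast of cage A with cages B and C called 9 genes with a pseudocount of 1, 1 with mitochondrial genes left out (0 higher and 1 lower, against 2 and 3), 0 without WT-5 and KO-8, and 0 to 8 with each mouse left out. Leaving mitochondrial genes out gave 0 higher and 3 lower calls between KO and WT, against 1 and 3. The number of correlated pairs was 0 by Spearman and 0 without WT-5 and KO-8.

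Signs of KO against WT log2 values turned in some settings, and the cause was not tested. Within cage A they were -0.26 for Erbb2, -0.087 for Egfr and -1.0 for Hbegf. Within cage B they were 0.093 for Erbb3 and -0.10 for Btc, and within cage C 0.17 for Erbb3, -0.11 for Hbegf and -0.19 for Btc. Erbb3 was 0.033 without WT-5 and KO-8, Hbegf -0.028 with a pseudocount of 1, and Errfi1 0.26 by its more abundant transcript alone. With each mouse left out, the values ran from -0.0082 to 0.20 for Erbb2, -0.78 to 0.045 for Areg, -0.31 to 0.63 for Hbegf, -0.051 to 0.14 for Btc and -0.48 to 0.055 for Errfi1. Erbb3, Egfr, Ereg and Tgfa kept their sign in those fits.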
